A study of Mus musculus with 13 samples.

Results

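The 5 Rag2c/c p53-/- thymic lymphomas of the series (152T, 313T, 415T, 548T and 551T) were compared with its 3 wild-type thymuses (WT1, WT2 and WT3) across all genes. These 8 of 13 libraries were chosen by genotype alone. Rag2c/c mice make a shortened RAG2 protein, the RAG2 core, which keeps the part needed for DNA cleavage but lacks the C terminus, and these mice also lacked p53. Their background was mixed C57BL/6 and 129S6/SvEv, whereas the WT thymuses came from C57BL/6 mice and were re-used from another dataset. The other 5 libraries, from Atm-/- thymic lymphomas of 129S6/SvEv mice, entered the fit and served only to ask where the Rag2c/c p53-/- lymphomas differed from another mouse T cell lymphoma. Both alleles are germline alleles, so stromal and blood cells of the tumor carried them too. Strain, and whatever else separated the re-used thymuses from the tumors, cannot be told apart from genotype.

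RAG1 and RAG2 form the V(D)J recombinase, which cuts antigen receptor gene segments in developing thymocytes so that the ends can be joined by non-homologous end joining. Breaks are normally made and repaired while the cell rests in G1, and p53 removes or halts thymocytes in which they persist. The C terminus of RAG2 helps to confine cutting to G1 and to hold the ends for repair, and mice that lack both the C terminus and p53 are known for thymic lymphomas.

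RNA was polyadenylated RNA from single-cell suspensions. Values are the authors' read counts per gene, scaled by library size factors and rounded to whole numbers, and are called normalized read counts below. The table held 43629 genes, of which 25737 were above 0 in at least 1 of the 8 libraries. The depth recovered from the spacing of low values was 21.7 M reads in 152T, 6.35 M in 313T, 19.45 M in 415T, 13.7 M in 548T and 24.7 M in 551T. WT2 held 6.65 M and WT3 34.2 M, and the depth of WT1 could not be fixed. 313T and WT2 were therefore the shallowest, and 1 read was worth 3.38 and 3.25 there, so values up to 3 count as near 0. Differences are group means of log2(value + 1), with the standard error (SE) and the Benjamini-Hochberg adjusted p of limma. A gene was called where the adjusted p was under 0.05, the difference reached 1 in either direction and a group mean reached 10. Nothing in the labels says that each library is a separate animal, so the p-values measure the spread between these samples.

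The altered genes were read first. Rag2 (ENSMUSG00000032864, chromosome 2, 101624718 to 101632529, GRCm38) was listed at 790, 260, 537, 410 and 695 in 152T, 313T, 415T, 548T and 551T. The thymuses held 4199, 5409 and 4502. Every lymphoma was below every thymus, and the difference was -3.22 (SE 0.71, adjusted p = 0.0036). Its neighbour Rag1, the catalytic partner, held 11239, 5620, 23493, 8465 and 18170 against 48182, 70834 and 51074, and fell with it (-2.24, SE 0.43, adjusted p = 0.00147). Neither differed by a called amount from Atm-/- lymphomas (Rag2 0.82, SE 0.62, adjusted p = 0.444, and Rag1 1.22, SE 0.37, adjusted p = 0.0503). Rag1 was called higher under 5 alternatives, at an adjusted p of 0.0154 without 313T. A count over the whole Rag2 gene does not show which coding part was read, so it does not check the core allele.

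Trp53, which encodes p53 (ENSMUSG00000059552, chromosome 11, 69580359 to 69591873), was listed at 2616, 5461, 2018, 3863 and 3884 in the lymphomas and at 4387, 6341 and 4498 in the thymuses. The groups overlapped, and the difference of -0.57 (SE 0.29, adjusted p = 0.131) was not called. Reads on Trp53 were thus abundant in p53-/- tumors, and the gene-level value does not check the null allele either. Against Atm-/- lymphomas, which held 6853 to 11318, Trp53 was lower (-1.38, SE 0.25, adjusted p = 0.00328).

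The label of T cell lymphoma was checked against T cell genes. Cd3e, a subunit of the T cell receptor complex, held 9801, 18552, 7957, 10779 and 7520 in the lymphomas and 9728, 15778 and 9222 in the thymuses, and Lck, the kinase that starts receptor signaling, held 17062 to 30142 against 18550 to 28454. Of 6 T cell markers, Cd5 alone was called, and it was lower. Without 313T 2 were lower, and without 313T and WT2 none was. The summed level of these markers was 54280 ± 16440 (SD, n = 5) in the lymphomas and 64950 ± 15540 (SD, n = 3) in the thymuses. Both coreceptors were present in every lymphoma, Cd4 at 5470 to 25455 and Cd8a at 14721 to 23709, against 19831 to 30705 and 21284 to 32183, and neither was called.

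Markers of other cells moved with the groups. All 6 B cell markers fell, their summed level being 92 to 506 in the lymphomas and 1446 to 1770 in the thymuses, with Cd79b the most abundant. Of 6 natural killer markers, 4 passed the filter on low values (at least 10 in at least 3 libraries), and all 4 fell (sums of 16 to 59 against 273 to 421). A gene near 0 in the lymphomas can pass this filter only through other libraries, so the filter favors decreases. Decreases were also called for 4 of 6 thymic epithelial and 3 of 6 dendritic cell markers. Psmb11, the thymoproteasome subunit of cortical epithelium, was at 0 or 1 in every lymphoma and at 91, 36 and 122 in the thymuses, and Foxn1, which specifies thymic epithelium, held 1 to 7 against 19 to 34. Sums of the epithelial list overlapped between groups (67 to 908 and 504 to 845), with Epcam at 875, 540 and 750 in 313T, 415T and 551T. In the other direction, 4 of 6 fibroblast markers rose, among them Col1a2, at 243 to 517 against 23 to 37 (3.44, SE 0.37, adjusted p = 2.81e-05). Of 6 macrophage and granulocyte markers, Cd68 rose, from 432 to 492 in thymus to 979 to 1825, S100a9 fell, from 527 to 711 to 8 to 115, and the other 4 were not called. With WT1 left out 2 fibroblast markers rose, with any 1 thymus left out 2 natural killer markers fell, and 1 or 2 epithelial markers fell. Without 313T and WT2, 1 epithelial and 2 natural killer markers fell. Of 4 tested markers of gamma delta T cells, Cd163l1 alone was called, at 1634, 2330, 4338, 613 and 4089 against 235, 185 and 249 (3.25, SE 0.79, adjusted p = 0.00625). The constant gene Tcrg-C1 of that list held 43 to 1463 against 646 to 734, and its neighbour Tcrg-C2, outside the list, fell (9 to 562 against 721 to 1041, -3.54, SE 1.13, adjusted p = 0.0253), a call lost without any 1 thymus. The level of Col1a2 was far lower than the 2099 to 6874 of Atm-/- lymphomas (-3.63, SE 0.32, adjusted p = 8.33e-06). In bulk RNA, fewer cells of a type and less RNA per cell cannot be told apart.

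Sex also went with the group. The Y-linked genes Eif2s3y, Kdm5d, Ddx3y and Uty were read in all 5 lymphomas and listed at 0 in all 3 thymuses, and Xist, the RNA of the inactive X, was at 0 to 3 in the lymphomas and 26404 to 30159 in the thymuses. Lymphoma genotype and sex therefore cannot be told apart in this comparison.

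Of 15872 genes tested, 3750 (23.6%) were called, 1551 (9.77%) higher in the lymphomas and 2199 (13.9%) lower, and the median difference over all tested genes was -0.02. This median was near 0 throughout and turned positive with a filter at 50 and without WT1 or WT3 (0.0083 at most). The lymphomas lay wholly above the thymuses for 3128 genes (19.7%) and wholly below for 3844 (24.2%). Apart from Y-linked genes, the largest increases among called genes whose higher group averaged 100 or more were those of Cym, Cdkn2a, Kank4, Trnp1, Aif1l and Ripk4. Cym, which encodes a gastric protease, held 2992, 5539, 2415, 1091 and 3331 against 3, 0 and 3. In Atm-/- lymphomas Cym held 1100 to 4878. Kank4 varied among the tumors, from 32 in 548T to 8038 in 152T, and was listed at 0 in the 3 thymuses. Besides Xist, the largest decreases were in Tox3, Gm4759, Zcchc12, Cd40lg, Gm9522, Ngp, Klhl4, Xlr3b and BC094916. Klhl4 was at 0 in all 5 lymphomas against 162, 104 and 132, and Cd40lg, the ligand by which helper T cells activate B cells, was at 0, 0, 27, 3 and 1 against 455, 422 and 586. The neutrophil granule gene Ngp was at 0 to 41 against 503 to 721.

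**Figure D1:**
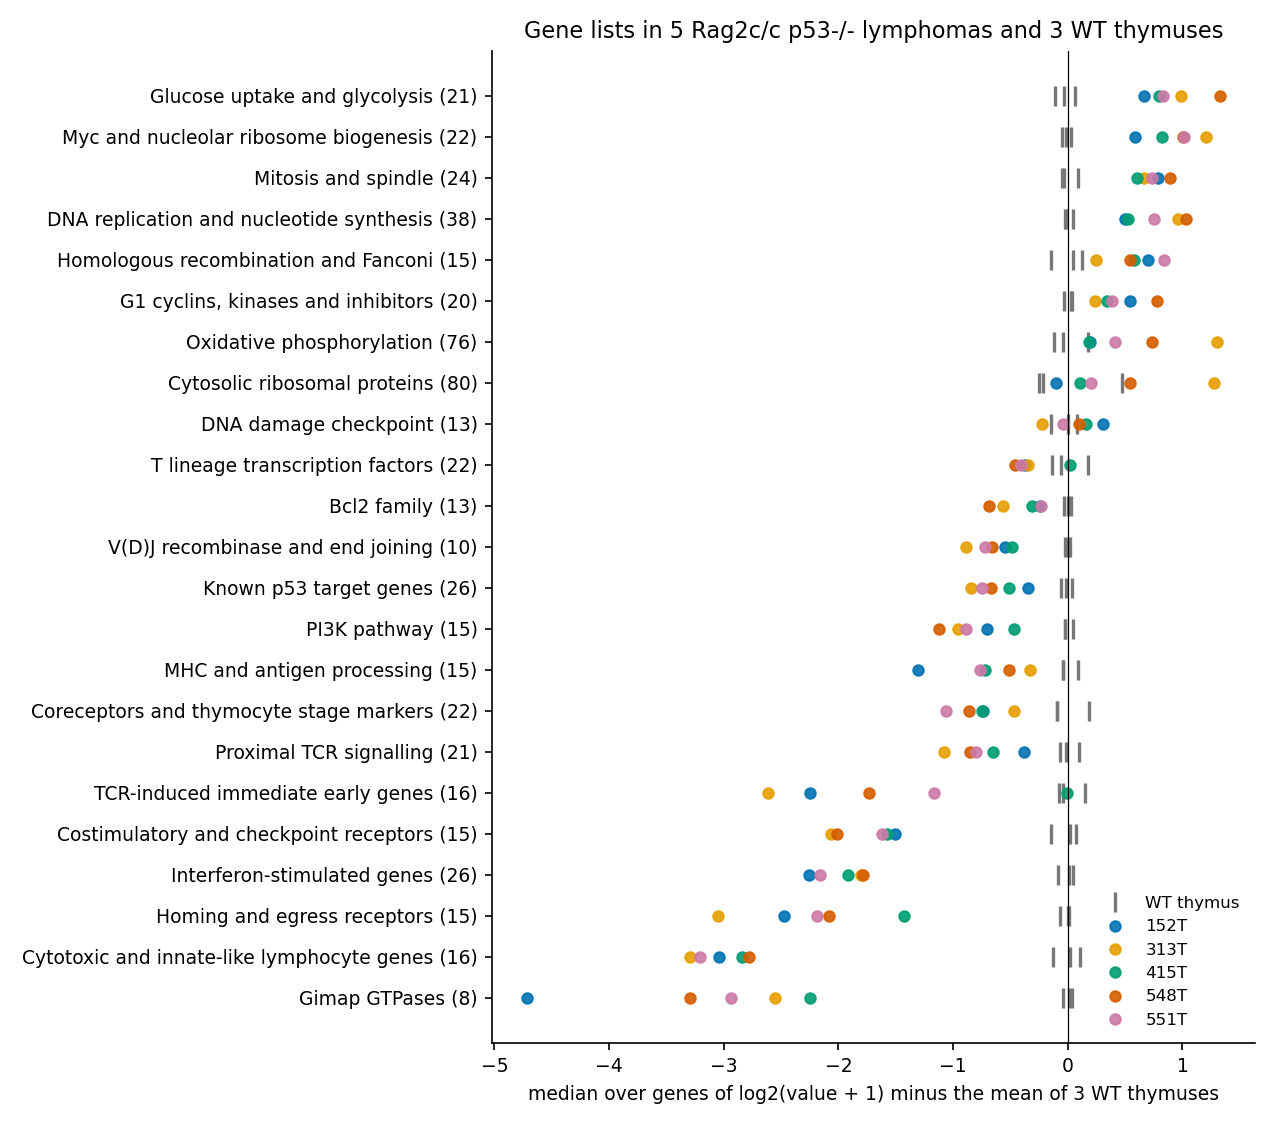
Median shift of 23 gene lists in each lymphoma (colored points) and each WT thymus (gray ticks). The horizontal axis is the median over tested genes of log2(value + 1) minus the mean of the 3 WT thymuses, and the number of genes tested is in brackets. All 5 lymphomas lie above the thymuses for glycolysis (0.66 to 1.33) and below them for interferon-stimulated genes (-2.26 to -1.78) and Gimap GTPases (-4.72 to -2.25).

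The regulators of G1 were reordered. Of 20 such genes, 7 rose and 2 fell, with a median of 0.50, where 9.77% of all genes tested rose and 13.9% fell. Cdkn2a, which encodes the tumor suppressors p16INK4A and p19ARF (ENSMUSG00000044303, chromosome 4, 89274471 to 89294653), held 4577, 6197, 3759, 5542 and 4036 against 4, 3 and 4. The 5 tumors differed from each other by less than 2-fold, and the difference was 9.995 on the log2(value + 1) scale (SE 0.68, adjusted p = 1.16e-06). A count over the whole gene does not separate the 2 proteins. Cdkn2b, the adjacent inhibitor gene (89306289 to 89311032), rose from 11, 3 and 12 to 76, 34, 51, 47 and 62 (2.64, SE 0.51, adjusted p = 0.00158).

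The D-type cyclins, which drive G1 kinases, were exchanged. Ccnd1 held 5986, 7248, 1290, 1939 and 4476 against 250, 162 and 299 and rose by 3.90 (SE 1.19, adjusted p = 0.021), a call that was lost without any 1 of the 3 thymuses (adjusted p = 0.0545 to 0.0748 by limma). Ccnd2 held 158, 274, 143, 53 and 115 against 6236, 5717 and 6642 and fell by 5.56 (SE 0.75, adjusted p = 0.000144). Ccnd3 did not differ by a called amount (14007 to 17281 against 15346 to 25377). Among the CIP/KIP inhibitors, Cdkn1c rose (355 to 1843 against 96 to 120, adjusted p = 0.00134), Cdkn1a rose (453 to 1015 against 136 to 208, adjusted p = 0.00148) and Cdkn1b fell (1819 to 3158 against 5810 to 8173, adjusted p = 0.000632). Ccne2 and E2f1 also rose, by 1.05 (SE 0.28, adjusted p = 0.0108) and 1.0 (SE 0.16, adjusted p = 0.000449). The Ccne2 call was lost without 152T or 548T, and the E2f1 call, close to the fold threshold, without 313T, 548T, 551T, WT1 or WT3.

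Of these genes, 4 were called between the 2 lymphoma types, for which 7.84% of all genes tested were called, 4.33% higher and 3.51% lower in Rag2c/c p53-/- tumors. All 5 tumors of one type lay above all 5 of the other for 4.48% of genes with Rag2c/c p53-/- higher and 3.85% with it lower. Cdkn2a was higher in Rag2c/c p53-/- than in Atm-/- lymphomas by 3.06 (SE 0.59, adjusted p = 0.00531), Cdkn2b by 2.02 (SE 0.44, adjusted p = 0.0106) and Ccnd1 by 3.93 (SE 1.03, adjusted p = 0.0265), and Ccnd2 was lower (-2.41, SE 0.65, adjusted p = 0.0286). Atm-/- lymphoma 411T, with 3808 for Cdkn2a and 3068 for Ccnd1, reached the range of the Rag2c/c p53-/- tumors, and the other 4 did not. The calls of Ccnd1 and Ccnd2 against Atm-/- were lost when single lymphomas were left out (adjusted p up to 0.0642 and 0.0713), and those of Cdkn2a and Cdkn2b were not.

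**Figure D2:**
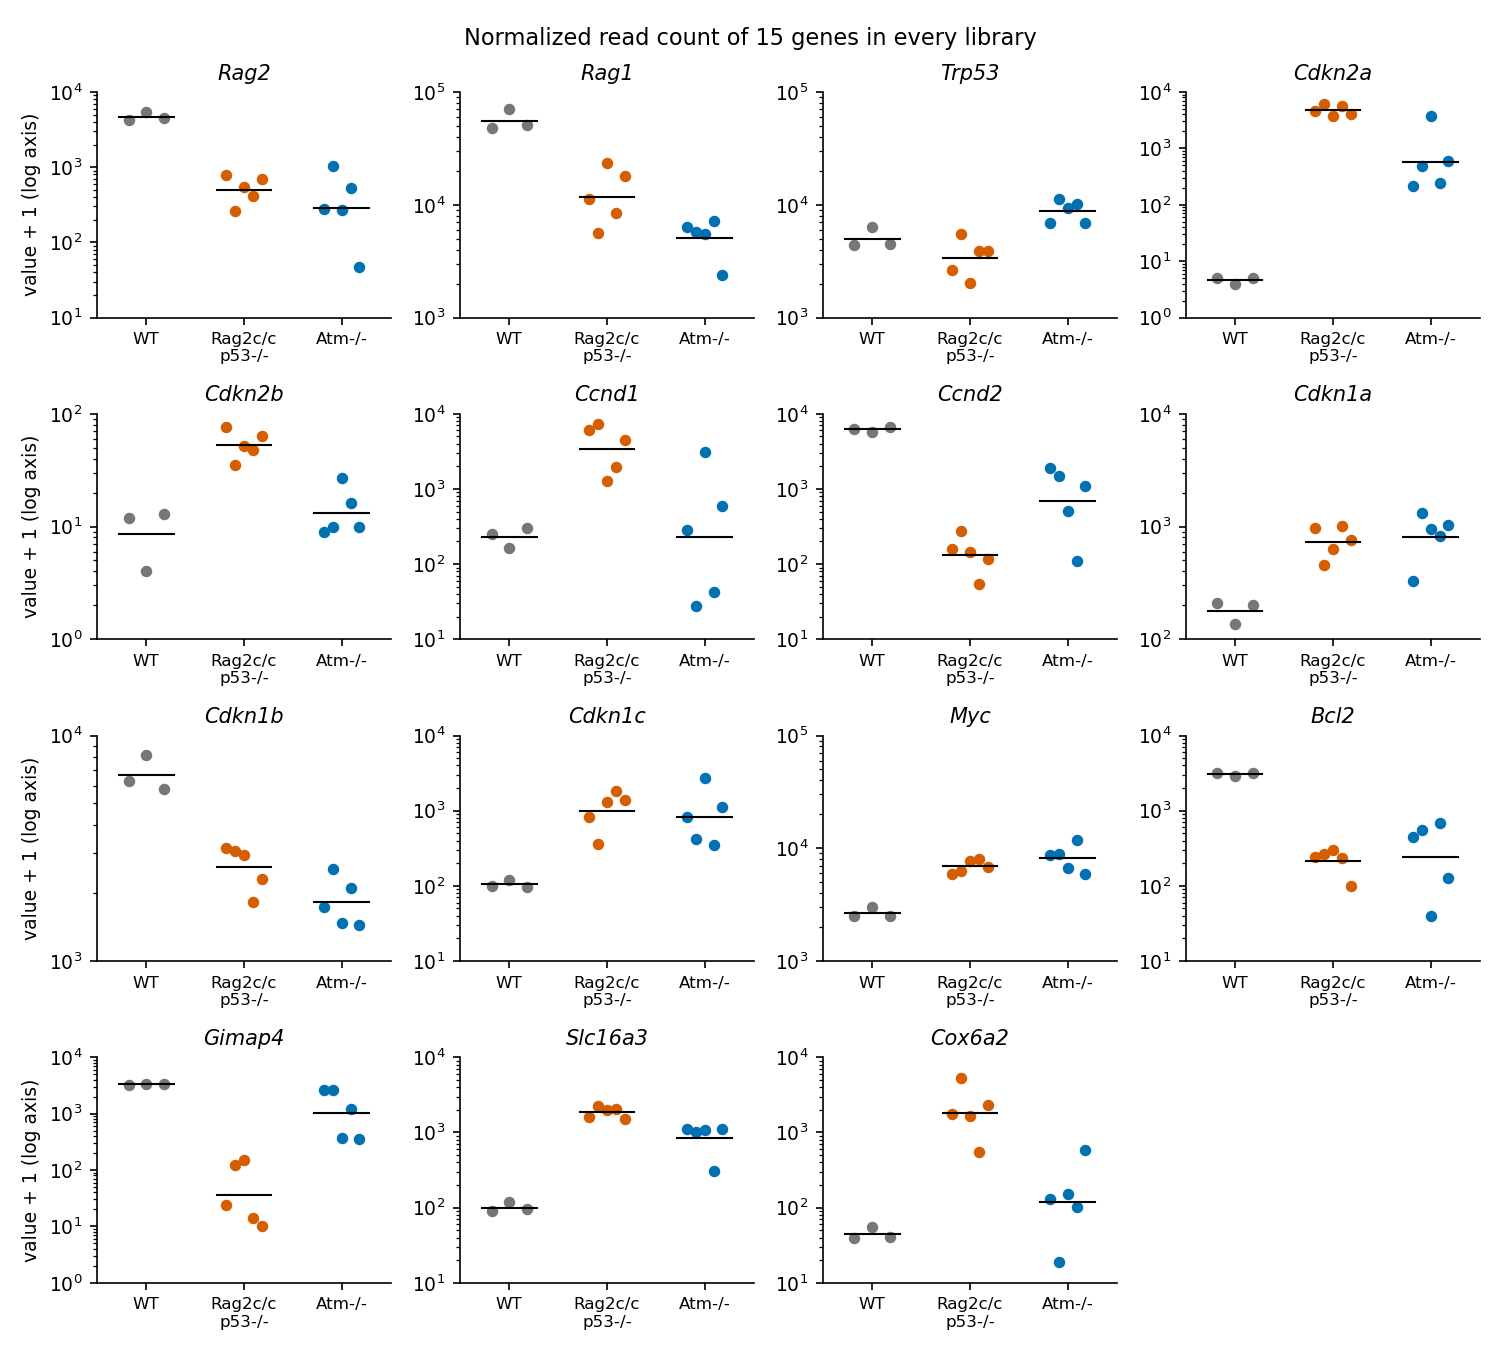
Normalized read count plus 1 (log axis) of 15 genes in every library of WT thymus, Rag2c/c p53-/- lymphoma and Atm-/- lymphoma, with lines at the mean of the log values. Cdkn2a lies at 3 to 4 in WT thymus and 3759 to 6197 in Rag2c/c p53-/- lymphomas, and Ccnd1 and Ccnd2 move in opposite directions.

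Few genes known as p53 targets were called. Of 26 tested, 3 rose (Gdf15, Cdkn1a and Sesn2) and 3 fell (Pmaip1, Fas and Bbc3), shares near the 9.77% and 13.9% of all genes tested, and the median was -0.73. The lymphomas lay wholly below the thymuses for 11 and wholly above for 4, where 24.2% and 19.7% of all genes tested did. The median shift of the list was -0.84 to -0.35 in the 5 lymphomas. Fas, the death receptor, held 536, 274, 341, 287 and 372 against 1652, 1673 and 1595 (-2.22, SE 0.56, adjusted p = 0.00802), and Pmaip1 and Bbc3, which encode the BH3-only proteins NOXA and PUMA, fell as well (-2.31, SE 0.48, adjusted p = 0.00249, and -1.27, SE 0.35, adjusted p = 0.0126). Sesn2, a stress-response gene, rose from 224 to 272 in thymus to 706 to 928 (1.8, SE 0.23, adjusted p = 9.92e-05). Without the 2 shallowest libraries, Fas, Bbc3 and Gdf15 were no longer called, and Bbc3 was lost without WT2 and Gdf15 without WT3. Against Atm-/- lymphomas, 5 of the 26 (Ccng1, Phlda3, Zmat3, Plk2 and Psrc1) were lower and none was higher. Phlda3 held 51 to 144 in Rag2c/c p53-/- and 234 to 831 in Atm-/- tumors (-2.18, SE 0.38, adjusted p = 0.00276), and Psrc1 166 to 321 and 482 to 909 (-1.27, SE 0.23, adjusted p = 0.00334). The calls of Ccng1, Zmat3 and Plk2 against Atm-/- were lost when single lymphomas were left out.

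Some genes of growth and division rose. In the list for DNA replication and nucleotide synthesis, 8 of 38 genes rose and none fell, with a median of 0.78, and 31 lay wholly above the thymuses. Among all genes tested, 9.77% rose, 13.9% fell and 19.7% lay wholly above. Orc1, of the origin recognition complex, held 979, 787, 713, 1018 and 1048 against 341, 312 and 380 (1.39, SE 0.23, adjusted p = 0.000535). Cdc6, which loads the helicase at origins, rose from 1355 to 1559 to 2554 to 4610 (1.29, SE 0.25, adjusted p = 0.00167), and the clamp loader subunit Rfc3 and Mcm10 rose by 1.25 (SE 0.18) and 1.23 (SE 0.18). Most of the list moved by less than 1 log2 unit, and with no fold threshold 29 members were higher at the same adjusted p. Of 24 mitosis genes, 6 rose and none fell, led by Cdc20 (1.33, SE 0.16, adjusted p = 6.86e-05), Aurkb (1.26, SE 0.20) and Aurka (1.25, SE 0.17). None of the members of either list was called between the 2 lymphoma types.

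Letters bound by E2F, the transcription factor family that RB restrains in G1, were searched on both strands in the 250 bases before each RefSeq start (TTTCCCGC, TTTGGCGC, TTTCGCGC and TTTGCCGC). They were present in 8 of the 31 replication genes matched by symbol (25.8%), 3.81% of 10518 tested genes matched and 2.16% of 27025 genes in all. The 140 bases before the start of the 3 called members with a match are shown, in GRCm38.p6 and in the direction of the gene, with the matched letters (on either strand) in capitals:
Cdc6 (chr11:98908011-98908150, plus strand): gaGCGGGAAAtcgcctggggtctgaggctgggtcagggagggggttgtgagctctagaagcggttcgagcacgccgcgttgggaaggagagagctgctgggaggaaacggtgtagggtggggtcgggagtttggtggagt
Orc1 (chr4:108579314-108579453, plus strand): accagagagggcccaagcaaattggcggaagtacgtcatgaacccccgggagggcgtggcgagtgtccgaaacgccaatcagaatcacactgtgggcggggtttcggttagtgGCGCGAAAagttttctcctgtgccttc
Rfc3 (chr5:151651209-151651348, minus strand): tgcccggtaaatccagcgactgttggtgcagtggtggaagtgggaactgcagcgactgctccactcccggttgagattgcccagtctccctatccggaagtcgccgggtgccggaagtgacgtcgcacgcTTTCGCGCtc
The match lies 138 bases before the start in Cdc6, 27 in Orc1 and 10 in Rfc3. A match describes letters and not binding.

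Myc and some genes of its growth program rose. Myc held 5968, 6272, 7740, 8055 and 6804 against 2495, 2985 and 2500 (1.38, SE 0.20, adjusted p = 0.000233). Of 22 genes of Myc and nucleolar ribosome biogenesis, 9 rose and none fell, with a median of 0.91, where 9.77% of all genes tested rose. Srm, which makes spermidine, rose by 1.8 (SE 0.24, adjusted p = 0.000128) and the ribosome assembly factor Bop1 by 1.42 (SE 0.15, adjusted p = 2.64e-05). With no fold threshold all 22 were higher at the same adjusted p, and without the 2 shallowest libraries 6 rose.

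Some genes of glucose uptake and glycolysis rose too. Of 21 genes, 11 rose and 1 fell, with a median of 1.04, where 9.77% of all genes tested rose and 13.9% fell. Wholly above the thymuses lay 12, where 19.7% of all genes tested did. Slc16a3, the lactate exporter MCT4, held 1601, 2222, 1978, 2047 and 1504 against 88, 117 and 94 (4.21, SE 0.36, adjusted p = 7.21e-06). Tpi1 rose by 1.8 (SE 0.22), Aldoa by 1.34 (SE 0.26) and Pkm, at 19955 to 40129 against 9787 to 13712, by 1.27 (SE 0.22, adjusted p = 0.000852). Pdk1, a pyruvate dehydrogenase kinase gene, was the exception and fell (1162 to 3374 against 5107 to 5885, -1.29, SE 0.33, adjusted p = 0.0081). Without 548T, in which the list stood highest, 7 genes rose.

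Oxidative phosphorylation and ribosomal protein genes differed between libraries of the same group. Of 76 respiratory chain genes 8 rose, a share near the 9.77% of all genes tested, and none fell. The lymphomas lay wholly above the thymuses for 29 of them, where 19.7% of all genes tested did. With no fold threshold 27 were higher at the same adjusted p. The median was 0.59, but the median shift was 1.30 in 313T and 0.18 to 0.73 in the other 4 lymphomas, and 2 genes rose without 313T, 5 without WT1, 4 without WT3 and 5 without 313T and WT2. Ribosomal protein genes, of which 1 of 80 rose and 2 fell, stood at 1.28 in 313T and at 0.48 in WT2, the 2 shallowest libraries, and 1 fell without any 1 of the 8 libraries other than 415T. Cox6a2 was higher in all tumors. This gene, which encodes a cytochrome c oxidase isoform of striated muscle, held 1759, 5221, 1638, 544 and 2344 against 38, 55 and 40 (5.34, SE 0.86, adjusted p = 0.000457), and it was higher than in Atm-/- lymphomas (18 to 577) by 3.95 (SE 0.74, adjusted p = 0.0043).

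V segments of the antigen receptor genes were used to ask how mixed each sample was, since each T cell clone transcribes the few V segments that it has rearranged. The last 48 bases of the 6 Trb V segments that ranked first or second in a lymphoma are shown because they carry the codon of the conserved cysteine at which the joined region begins (TGT, in capitals), from GENCODE transcripts of GRCm38, all on chromosome 6:
Trbv2 (chr6:41047340-41047995): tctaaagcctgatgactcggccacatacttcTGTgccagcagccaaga
Trbv3 (chr6:41048290-41048828): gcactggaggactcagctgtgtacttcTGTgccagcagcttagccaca
Trbv13-2 (chr6:41121396-41121832): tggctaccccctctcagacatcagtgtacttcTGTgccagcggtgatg
Trbv19 (chr6:41178375-41179048): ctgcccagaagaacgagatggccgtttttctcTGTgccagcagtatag
Trbv24 (chr6:41218091-41218557): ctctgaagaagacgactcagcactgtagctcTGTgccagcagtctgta
Trbv26 (chr6:41227505-41227993): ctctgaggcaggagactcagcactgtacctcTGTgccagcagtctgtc
Trbv24 is annotated as a pseudogene. Coordinates are those of the whole segment.

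A single Trb V segment, or a pair, took most of the V reads in each lymphoma. Trbv2 made up 94.3% of the summed V value in 152T (95% Wilson interval 93.7 to 94.8% from the estimated reads, for counting error only), and Trbv19 98.4% in 313T. In 415T, Trbv13-2 made up 56.3% and Trbv26 25.4%, in 548T Trbv2 53.7% and Trbv3 44.5%, and in 551T Trbv24 69.2% and Trbv19 15.5%. The thymuses had Trbv13-2 in the lead at 9.89, 11.3 and 9.99%, and 18 segments above 1% each, against 1 to 7 in the lymphomas. The leading share was higher in all 5 lymphomas (74.4% ± 21.0, SD, n = 5, against 10.4% ± 0.785, SD, n = 3, two-sided exact permutation p = 0.0357, the smallest that 5 against 3 allows, and 0.0536 adjusted over 3 loci). Without pseudogenes, the leader in 551T was Trbv19 at 50.4%. The summed Trb V value was also lower, 5745 ± 822 against 19490 ± 678.

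**Figure D3:**
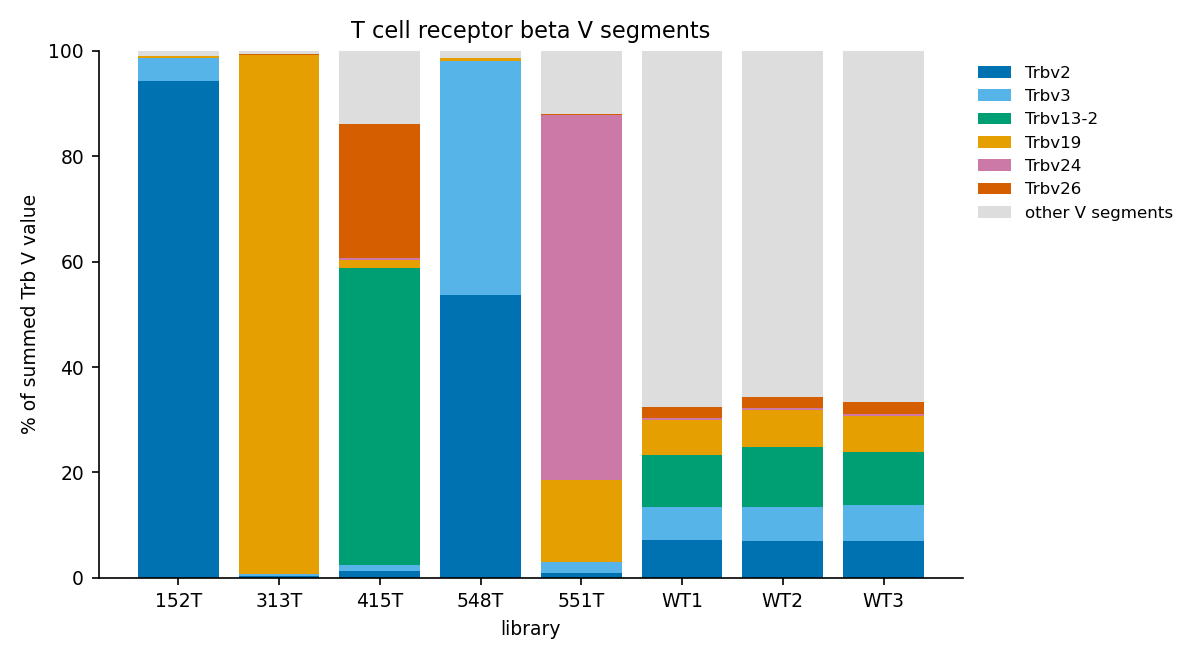
Share of each Trb V segment in the summed Trb V value of the 5 Rag2c/c p53-/- lymphomas and 3 WT thymuses, stacked to 100%. The leading segment takes 53.7 to 98.4% in the lymphomas and 9.89 to 11.3% in the thymuses.

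Neither Trb constant gene was called (Trbc1 adjusted p = 0.117 and Trbc2 adjusted p = 0.828). Trbc1 held 61 in 313T and 17 in 415T, against 1634 to 8484 in the other 3 lymphomas and 9559 to 15801 in thymus, while Trbc2 was present in all (4487 to 37090 against 11385 to 19387). The 2 genes are near identical, so reads that map to a single place cover only part of them and these values are uncertain. Tra V segments were less skewed, with leaders of 10.2% (Trav7-4 in 152T) to 40.7% (Trav13-1 in 313T) against 4.11 to 4.41% in thymus (two-sided exact permutation p = 0.0357, adjusted 0.0536, n = 5 and 3). Near-identical copies of Trav segments could have lost reads in the same way. The leading share of Trg V segments overlapped between the groups, since the leader took 44.8 to 79.0% in 4 lymphomas and 52.9 to 55.7% in thymus (two-sided exact permutation p = 0.971, n = 4 and 3), and 551T, with a Trg V sum of 33, was given no share. The leader itself was Tcrg-V4 in 152T, 313T and 415T and Trgv2 in 548T and the 3 thymuses. The Trd V sum was 1073 in 551T, of which Trdv5 made up 92.0%, while the other 4 lymphomas held 0 to 12 and the thymuses 285 to 371.

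Some genes of thymocyte activation and maturation fell. None of the 22 coreceptor and stage genes rose and 6 fell, with a median of -0.75, where 9.77% of all genes tested rose and 13.9% fell. Cd69, an early activation and selection marker, held 88, 44, 238, 50 and 40 against 1602, 1501 and 1555 (-4.42, SE 0.65, adjusted p = 0.000258). Cd5, which tracks receptor signal strength, held 360 to 2041 against 6131 to 7014 (-2.60, SE 0.73, adjusted p = 0.0135), and Cd28 and the chromatin organizer Satb1 fell as well (-2.11, SE 0.46, and -1.31, SE 0.26). Il2ra, a marker of early thymocytes, was at 19 to 1023 against 3375 to 3662 and was not called (adjusted p = 0.0824), so the tumors varied widely. Without 313T and WT2, 3 genes of the list fell, and the calls of Cd5 and Satb1 were lost.

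Some targets of receptor signaling and some of its machinery fell. Of 16 immediate early genes, 5 fell and 2 rose (Atf3 and Ier3, with means under 100 in the lymphomas). Among all genes tested, 13.9% fell and 9.77% rose. Egr2 held 42, 30, 75, 44 and 34 against 770, 825 and 965 (-4.28, SE 0.35, adjusted p = 4.34e-06), and Nr4a3 and Egr3 fell as well (-4.25, SE 0.75, and -4.12, SE 0.81). 415T stood apart with Fos at 15233, against 91 to 541 in the other lymphomas and 494 to 836 in thymus, and without it 9 members of the list fell. Of 21 genes of proximal receptor signaling, 7 fell, with a median of -0.78. They included Cbl, a ubiquitin ligase that limits signaling (569 to 2324 against 6520 to 9082, adjusted p = 0.00135), the Ras activator Rasgrp1 (-2.13, SE 0.47) and the kinase Prkcq (-1.71, SE 0.42), while Zap70 (3736 to 6285 against 5275 to 6201) and Lat (9134 to 24952 against 9885 to 15593) were not called. Without the 2 shallowest libraries 4 of the 21 fell, and the Prkcq call was lost.

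Receptors for homing and exit were among the most reduced. Of 15, 10 fell and 1 rose, with a median of -2.18, where 13.9% of all genes tested fell and 9.77% rose. S1pr1, by which mature thymocytes leave the organ, held 19, 27, 49, 25 and 21 against 1406, 1286 and 1361 (-5.61, SE 0.62, adjusted p = 3.64e-05). Ccr7, the receptor for entry to the medulla and lymph nodes, held 53 to 189 against 1897 to 2281 (-4.39, SE 0.42, adjusted p = 1.3e-05), and Itgae fell by 4.45 (SE 0.55). Ccr9, abundant in thymocytes, overlapped nowhere but fell less (2865 to 14490 against 15332 to 20719, -1.51, SE 0.49, adjusted p = 0.0276), and its call was lost without 313T, 548T or any 1 thymus. Cxcr3 was the member that rose, to 240 to 409 from 119 to 129 (1.31, SE 0.49, adjusted p = 0.0489), a call lost without any 1 of the 8 libraries. Against Atm-/- lymphomas, however, where it held 18 to 119, Cxcr3 was higher by 3.0 (SE 0.42, adjusted p = 0.000598). Without 313T and WT2, 6 of the 15 fell.

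Many effector and costimulatory genes fell likewise. Of 18 cytotoxic and innate-like genes, 16 passed the filter on low values, and 11 of these fell and 2 rose. Among all genes tested, 13.9% fell and 9.77% rose. Nkg7, of cytotoxic granules, held 9 to 24 against 643 to 703 (-5.26, SE 0.48, adjusted p = 1.06e-05), and granzyme B (Gzmb) 1 to 10 against 120 to 159. The exceptions were Gzma, at 2067, 9703, 2457, 5092 and 3314 against 1163, 1296 and 1105 (1.69, SE 0.40, adjusted p = 0.00498), and Tbx21, the T-bet factor of type 1 T cells, at 311 to 1034 against 84 to 101 (2.85, SE 0.59, adjusted p = 0.00238). Of the 4 natural killer markers that fell, 3 (Klrb1c, Ncr1 and Eomes) are members of this list too, and the part of natural killer cells in it was not tested. 7 of the 16 fell when any 1 thymus, or 313T and WT2, was left out. Of 15 costimulatory and checkpoint receptors 9 fell and none rose, led by Icos (21 to 154 against 1316 to 1455, -4.34, SE 0.74), Tnfrsf9 (-3.31, SE 0.76) and Btla (-3.17, SE 0.47).

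Few T lineage transcription factors were called. Of 22, 1 rose and 2 (Zbtb7b and Ikzf2) fell, and neither decrease was called without any 1 thymus or without 313T and WT2. Both shares lay below the 9.77% and 13.9% of all genes tested. Without 152T, 313T or 551T 1 of the 22 fell, and without 415T 4 did. Tcf7, which establishes T identity, held 43027 to 51560 against 38311 to 70396, and was not called. Runx3, of the CD8 lineage, rose from 1413 to 1761 in thymus to 2753 to 5885 (1.36, SE 0.28, adjusted p = 0.00218), and Zbtb7b, which encodes the CD4 lineage factor ThPOK, fell from 1431 to 1591 to 108 to 820 (-2.42, SE 0.77, adjusted p = 0.0255), a call lost without 551T too. Of 18 progenitor and oncogenic factors only 10 passed the filter on low values, and 5 of these fell, among them Erg (0 to 6 against 104 to 123) and Bcl11a (6 to 20 against 185 to 235). Genes near 0 in the lymphomas, such as Erg, can pass this filter only through other libraries, so the filter favors decreases. Without WT1 or WT3, 3 fell. B cell and dendritic cell markers were lower in the same libraries, and their part in these decreases was not tested. Of 15 Notch genes 2 rose (Heyl and Myc) and 1 fell, counts near the shares of all genes tested. Heyl, a target gene, held 534, 159, 799, 449 and 303 against 37, 16 and 26 (3.92, SE 0.81, adjusted p = 0.00238), and Notch2 fell by 1.59 (SE 0.38, adjusted p = 0.00547). Notch1, at 11569, 11902, 26815, 16700 and 15039 against 9029, 10454 and 10854, was not called (0.63, SE 0.70, adjusted p = 0.505).

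Interferon-stimulated genes fell as a group. Of 26, 21 fell and none rose, with a median of -1.91, and 22 lay wholly below the thymuses. Among all genes tested, 13.9% fell and 24.2% lay wholly below. Oas2, a sensor of viral RNA, held 23, 37, 45, 43 and 19 against 543, 487 and 569 (-4.03, SE 0.63, adjusted p = 0.000388). Ifit1 fell from 848 to 1010 to 44 to 118 (-3.77, SE 0.58), and Ifih1 and Rtp4 fell as well (-3.49, SE 0.53, and -3.22, SE 0.47). In the fit without the 2 shallowest libraries, 18 members of the list fell. The median shift of the list was -2.26 to -1.78 in these lymphomas and -2.58 to -1.74 in Atm-/- lymphomas, and in the direct comparison of the lymphomas Rsad2 was higher and Xaf1 lower (1.34 and -1.33), the first a call lost without 9 of the 10 lymphomas in turn. Dendritic, epithelial, natural killer and B cell markers were lower in the same libraries, and their part in this list was not tested.

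The letters GAAA, NN and GAAA in a row (N being any base), the core of the interferon-stimulated response element, stood in the 250 bases before the start of 7 of the 18 list members matched in RefSeq (38.9%, on either strand and counting overlapping matches), against 3.27% of 10518 tested genes and 3.46% of 27025 genes. The 140 bases before the start are shown for 3 of the 5 called members with a match, those with the largest decreases, again in GRCm38.p6 with matched letters in capitals:
Isg15 (chr4:156200819-156200958, minus strand): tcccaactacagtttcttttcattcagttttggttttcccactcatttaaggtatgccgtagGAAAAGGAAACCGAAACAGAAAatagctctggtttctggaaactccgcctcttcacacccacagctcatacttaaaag
Ifit1 (chr19:34640749-34640888, plus strand): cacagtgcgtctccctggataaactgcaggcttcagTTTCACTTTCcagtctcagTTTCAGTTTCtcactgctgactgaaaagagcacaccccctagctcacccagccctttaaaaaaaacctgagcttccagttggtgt
Ifit3 (chr19:34583389-34583528, plus strand): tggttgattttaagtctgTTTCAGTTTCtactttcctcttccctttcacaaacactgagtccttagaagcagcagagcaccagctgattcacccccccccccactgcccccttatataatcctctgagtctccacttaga
Isg15 holds 3 overlapping matches within 1 stretch, Ifit1 2 and Ifit3 1. Isg15, a ubiquitin-like modifier, fell from 503 to 581 to 38 to 228 (-2.63, SE 0.57, adjusted p = 0.0032), and Ifit3 from 312 to 482 to 29 to 74 (-3.09, SE 0.37, adjusted p = 6.02e-05).

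Some genes of antigen presentation fell. Of 15 MHC and processing genes 7 fell and none rose, with a median of -0.75, where 13.9% of all genes tested fell and 9.77% rose. B cell, dendritic and epithelial markers were lower in the same libraries, and their part in this list was not tested. Nlrc5, the activator of class I genes, fell from 1881 to 2426 to 157 to 338 (-3.16, SE 0.44, adjusted p = 0.000179), the class I gene H2-K1 held 1081, 3685, 1765, 4376 and 2105 against 7355, 8560 and 7484 (-1.76, SE 0.38, adjusted p = 0.00293), and the class II gene H2-Eb1 fell by 1.14 (SE 0.22), a call lost without 152T. 3 members fell without 152T, the tumor in which the list stood lowest, and 4 without WT3.

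Some survival and PI3K genes were lower. Over all genes tested, 13.9% fell and 9.77% rose. Of 13 Bcl2 family genes, 4 fell and 1 rose. Bcl2, which protects mature lymphocytes, held 243, 267, 303, 235 and 98 against 3157, 2911 and 3134 (-3.83, SE 0.74, adjusted p = 0.0016), and the BH3-only gene Bik rose from 16 to 26 to 180 to 442 (3.76, SE 0.56, adjusted p = 0.000276). 2 members fell without WT2, or without 313T and WT2. Of 15 genes of the PI3K pathway, 6 fell and none rose. Inpp4b, a phosphatase of the pathway, held 27, 7, 123, 46 and 58 against 2312, 1644 and 2636 (-5.83, SE 0.71, adjusted p = 7.55e-05). Akt1 was near the thymus range in 3 tumors (4478 to 6086 against 4398 to 5766) and reached 47706 in 415T and 29777 in 548T, and as a group difference it was not called (adjusted p = 0.136). 3 members of the list fell without WT3, or without 313T and WT2.

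The Gimap genes, which encode GTPases of lymphocyte survival in 1 cluster on chromosome 6, had the lowest median of the lists drawn, -3.16. Of 8, 7 fell, where 13.9% of all genes tested did. Gimap4 held 23, 122, 152, 13 and 9 against 3273, 3356 and 3391 (-6.52, SE 0.92, adjusted p = 0.000207), Gimap3 15 to 47 against 978 to 1048, and Gimap6, the most abundant, 92, 625, 1026, 388 and 384 against 7370, 7553 and 6711 (-4.21, SE 0.55, adjusted p = 0.000122). The cluster also separated the lymphoma types, since 5 members were lower than in Atm-/- lymphomas, where 3.51% of all genes tested were. Gimap4 held 352 to 2651 there (-4.80, SE 0.80, adjusted p = 0.00199) and Gimap6 1789 to 3910 (-2.69, SE 0.48, adjusted p = 0.00305). Gimap8 was lower (-1.66, SE 0.49, adjusted p = 0.0417), which was lost without 7 of the 10 lymphomas in turn.

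Most genes of the repair lists were not called. The recombinase and end-joining list, with 1 member higher and 3 lower, had a median of -0.64, where 9.77% of all genes tested rose and 13.9% fell. Among 10 genes of the recombinase and end joining, Xrcc6, which encodes the KU70 end-binding protein, rose from 6768 to 7696 to 10864 to 20011 (1.16, SE 0.19, adjusted p = 0.00052), and Prkdc, which encodes the DNA-PK catalytic subunit, fell from 1319 to 1934 to 463 to 858 (-1.21, SE 0.20, adjusted p = 0.000579) besides Rag1 and Rag2. The ligase gene Lig4 (1565 to 4081 against 2983 to 3187) and Dntt, which adds bases at junctions (8740 to 14163 against 16482 to 23103), were not called. Of 15 homologous recombination and Fanconi genes, 3 rose, Xrcc3, Rad54l (1.31, SE 0.19, adjusted p = 0.000256) and Rad51c, and none fell, and 5 rose without 313T. Xrcc3 was highest in 415T and 548T (1629 and 1893, against 561 to 892 in the other tumors and 389 to 411 in thymus). Of 9 alternative end-joining genes 1 rose (Nbn, 729 to 1548 against 471 to 639), and of 13 checkpoint genes 1 fell (Atm, 439 to 1315 against 1559 to 2274), and both calls were lost when single libraries were left out, Nbn without 152T, 551T or WT2 and Atm without 313T, 548T or any 1 thymus. Of 19 chromatin and DNA methylation genes 6 fell and none rose. Tet1, which oxidizes methylated cytosine, held 60, 122, 361, 210 and 383 against 1696, 1387 and 1740 (-3.11, SE 0.56, adjusted p = 0.00101), and was lower than in Atm-/- tumors too (-1.94, SE 0.49, adjusted p = 0.0212), a call lost without 298T or 756T. The X-linked demethylase Kdm6a fell by 2.05 (SE 0.45, adjusted p = 0.00332), and sex differed with the group.

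RNA levels were then read by chromosome, as the median over tested genes of the difference from the mean thymus. These measures and the regions that follow were chosen after the values had been seen. Chromosome 4 stood at 0.52, 0.31, 0.39, 0.39 and 0.34 in 152T, 313T, 415T, 548T and 551T and at 0.02 to 0.14 in the 5 Atm-/- lymphomas. The groups did not overlap (two-sided exact permutation p = 0.00794, n = 5 and 5, the smallest possible, and 0.0529 adjusted over 20 chromosomes). The lymphoma types did not overlap on chromosomes 3 and 8 either, with the same p, Rag2c/c p53-/- being lower (-0.41 to -0.15 against -0.14 to -0.07, and -0.09 to 0.05 against 0.07 to 0.13), but with the filter at 50 those of chromosome 3 overlapped (-0.45 to -0.16 and -0.20 to -0.07). On chromosome 4, 19.1% of 1011 genes were called higher and 7.62% lower than thymus. Chromosome 15, where Myc lies, stood at 0.26 to 0.56 in Rag2c/c p53-/- and at 0.10 to 0.57 in Atm-/- tumors (exact permutation p = 0.976). Chromosome X, in lymphomas with Y-linked reads and thymuses with Xist, stood at -0.66 to -0.28. These are RNA levels, and DNA copy number was not measured.

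**Figure D4:**
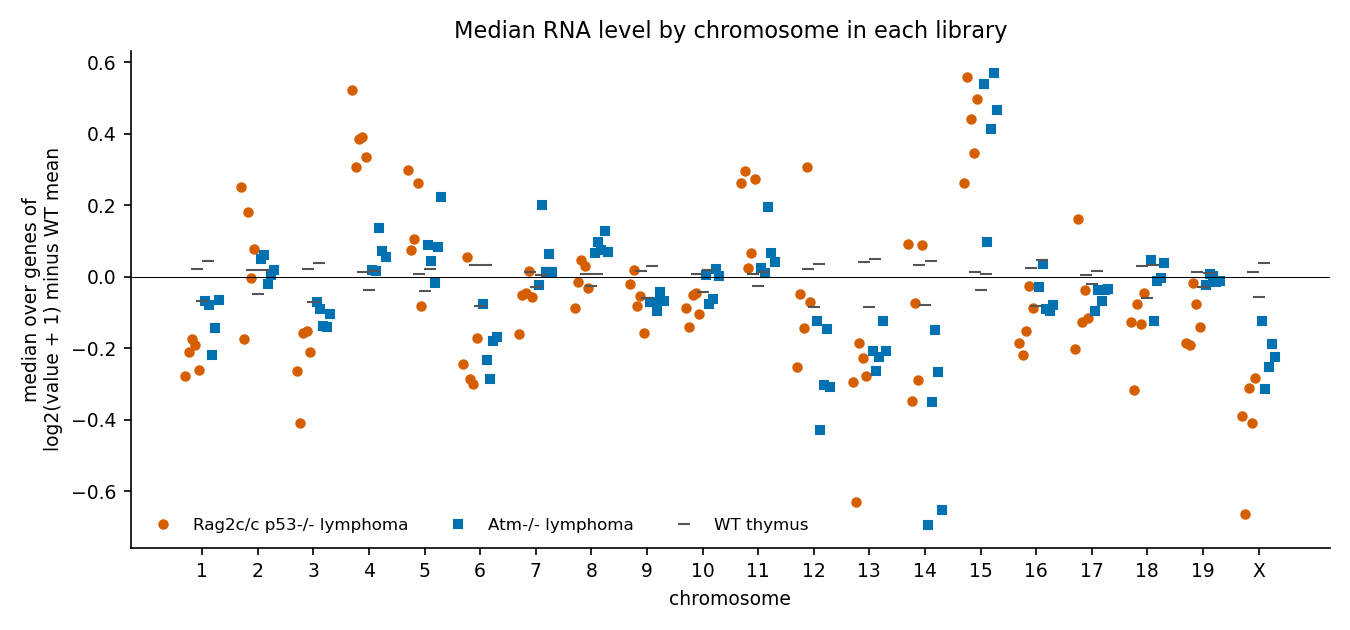
Median RNA shift of each chromosome from the mean of the 3 WT thymuses, log2 scale, in 5 Rag2c/c p53-/- lymphomas, 5 Atm-/- lymphomas and 3 WT thymuses. Chromosome 15 is raised in both lymphoma groups and chromosome 4 in the Rag2c/c p53-/- group (0.31 to 0.52).

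Runs of neighbouring genes were higher or lower, some in single tumors and some in all. Of 2089 windows of 15 genes, 415T and 313T had 6 each and 548T 5 with a median of at least 1.5, the thymuses had none, and the Atm-/- lymphomas had 1 to 7. Windows with a median of -1.5 or below numbered 6, 21, 1, 6 and 7 in 152T, 313T, 415T, 548T and 551T, 0 in the thymuses and 2 to 9 in the Atm-/- lymphomas. 313T was the shallowest of these lymphomas, and the part of depth was not tested. Some of these windows were lower in every lymphoma. One (chr13:66932830-67687071) stood at -2.15 in 313T, -1.38 to -0.89 in the other Rag2c/c p53-/- and -1.35 to -1.13 in the Atm-/- lymphomas. Neighbouring windows share genes. A stretch with higher values lay on chromosome 12 (chr12:111669355-113189520), from Ckb to Tmem121, next to the Igh constant genes. The median of its 30 genes was 2.21 in 548T, in which 26 genes were at least 1 log2 unit above thymus, 0.81 in 415T and 0.69 in 313T, with 14 such genes in each of the latter, and -0.99 to -0.53 in the Atm-/- lymphomas. It includes Akt1 and Xrcc3, and also Siva1, an apoptosis gene (6986 in 415T and 8212 in 548T, 932 to 2148 in the other 3 tumors and 654 to 796 in thymus), and Mta1, of the NuRD complex (34099 in 548T, 10946 in 415T, 5152 to 6834 in the others and 3681 to 5038 in thymus). Kif26a, at 0 to 12 in thymus, reached 14464 in 415T.

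A further stretch of chromosome 12, with 24 genes (chr12:84409071-86291414), had a median of 2.38 in 415T and 1.37 in 313T, and of 1.19 in the Atm-/- lymphoma 411T. In 415T the higher values began at Arel1 (13505 against 2316 to 2556) and ran through Dlst (23684 against 3845 to 3940), Nek9 and Fos. Every gene from Arel1 to Gpatch2l was at least 1 log2 unit above thymus in 415T, 18 in all, while in 313T 13 genes between Ccdc176 and Jdp2 were, and Arel1 was not. Jdp2, which encodes a partner of FOS and JUN proteins, was higher in all 5 tumors, at 1351 to 5911 against 52 to 73, and held 313 to 3412 in the Atm-/- lymphomas.

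**Figure D5:**
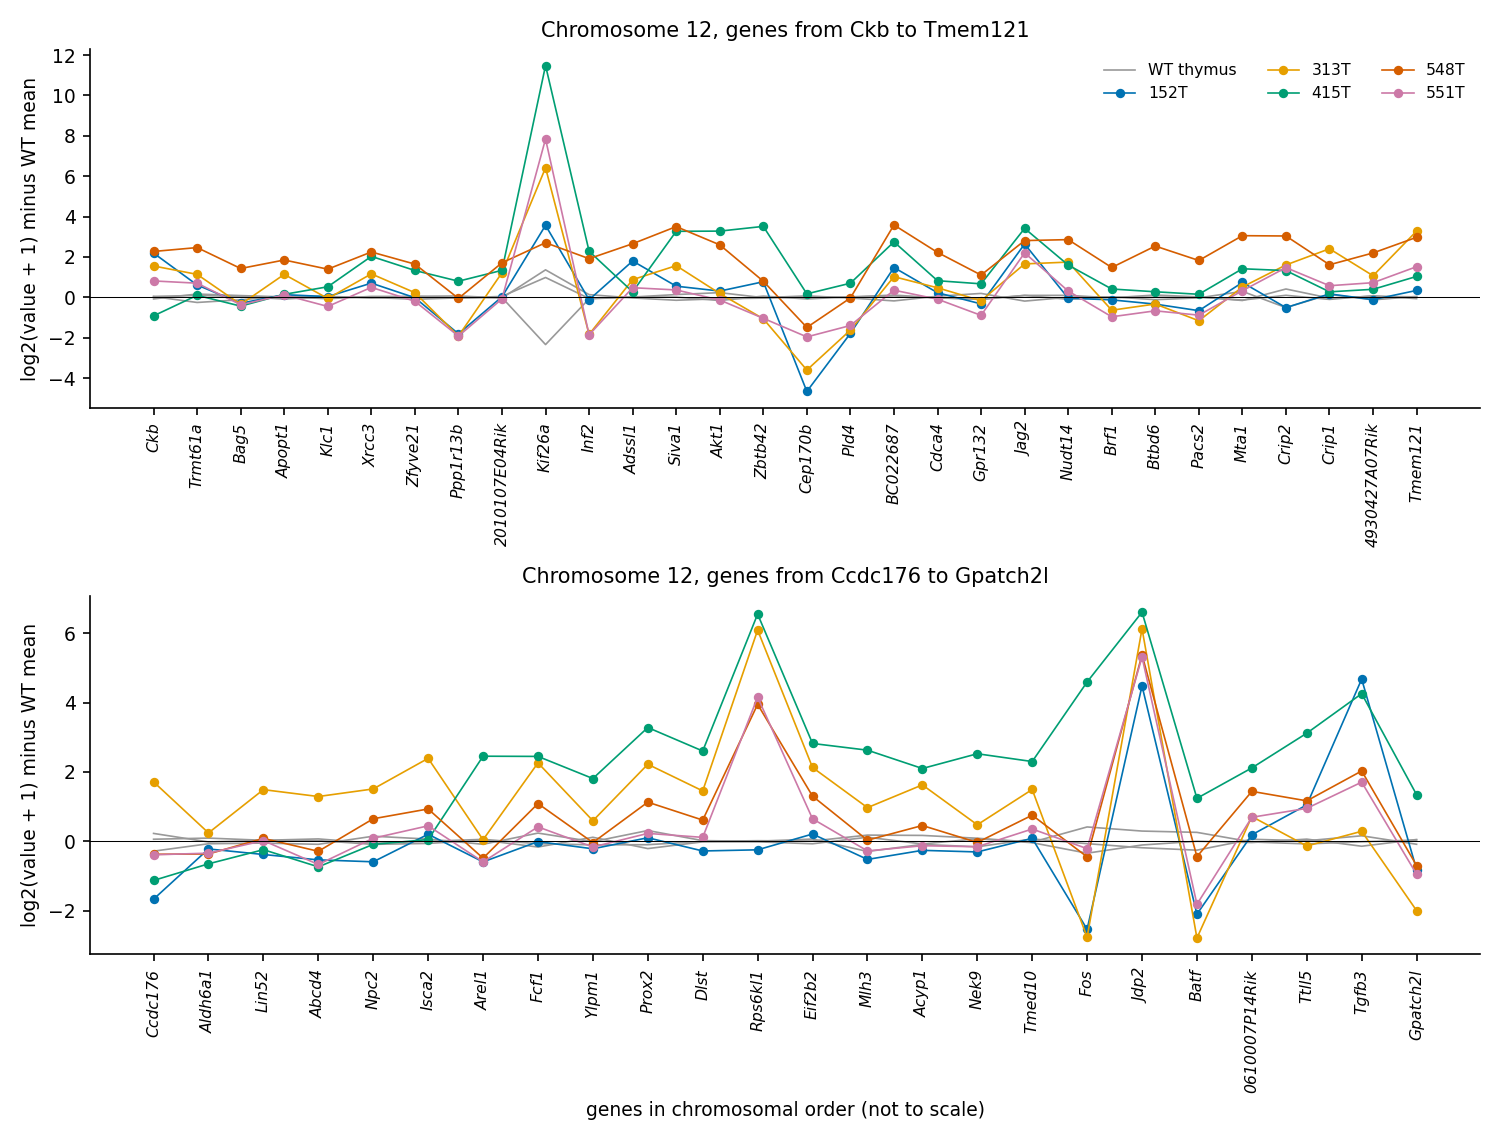
Shift of each gene from the mean of the 3 WT thymuses (log2(value + 1)) along 2 stretches of chromosome 12, genes in chromosomal order and not to scale, in 5 lymphomas and 3 thymuses (gray). Above, 548T is raised over most of the 30 genes and 415T and 313T over part of them, and below, 415T is raised from Arel1 onward (median 2.38).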

How the data were processed

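Polyadenylated RNA of single-cell suspensions was made into TruSeq Stranded mRNA libraries. Per the labels and the study's methods, reads were demultiplexed with bcl2fastq 1.8.3, aligned to GRCm38 with STAR 2.4.0g1, processed with Picard, counted per gene and normalized with DESeq2 1.6.3. The methods describe the WT thymuses and were taken to hold for the lymphomas of the same table.

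The deposited values were treated as scores, because the authors had divided counts by library size factors and rounded them to whole numbers, which excludes a count model as the test. The table's columns of fold changes and p-values were not used, and 0 columns of per-library values were left out. Depth was estimated from the worth of 1 read, found from the spacing of low values.

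All 13 libraries in 3 groups were fitted with limma 3.58.1 (R 4.3.3, trended and robust) on log2(value + 1), for genes with at least 10 in at least 3 libraries. Shares and chromosome medians were compared with two-sided exact permutation tests (SciPy 1.17.1). The fit was tested on simulated data of 15394 genes for lymphoma against WT, and called 68.4% of genes changed by 1.5 log2 units and 89% of those changed by 2. The simulation gave all genes and groups the same spread setting, so these shares need not hold for genes that vary more among the tumors. Intervals cover counting error only.

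Named genes were Rag2, Trp53 and Rag1, the 10 largest called changes each way with a mean of at least 100 in the higher group and no overlap, up to 4 called and the 2 most abundant members of each list, 3 genes that were highest in each lymphoma alone, the leading V segments, and the leading markers. Genes outside this rule, namely those named for a difference from Atm-/- lymphomas, as uncalled members of a list or as members of a small count, and the chromosomes and chromosomal stretches, were chosen after their values were seen. A few genes that this rule names are not reported here. The members and gene lists were chosen with earlier results of these data known. Alternatives were other pseudocounts, filters, scalings, fold thresholds and fits, and each library left out.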

Additional observations from a re-analysis of the deposited data

Results flagged for a closer look

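Single lymphomas stood far from the other 4 for 39 of 163 genes examined, by the gap of the extreme library over the range of the group. The gap was taken on normalized read counts without logs, and how often it arises by chance in such values was not tested. Of these, 15 had been chosen for being high in 1 lymphoma, which leaves 24 of 148.

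415T was the highest lymphoma for Fos at 15233, Cd69 at 238, S1pr1 at 49, Ccr8 at 128, Egr3 at 104, Cd40lg at 27, Tcrg-C2 at 562 and Plk2 at 60, and the lowest for Psrc1 at 166. In 152T, Bbc3 (381), Mycn (35), Klrb1c (17) and Kank4 (8038) were highest. In 313T, one of the shallow libraries, the values were 37090 for Trbc2, 2408 for Ndufs5 (of respiratory complex I), 132 for Cd79a, 115 for S100a9, 517 for Xaf1 and 41 for Ngp. In 548T they were 216 for Ifih1, 2593 for the imprinted RNA H19 and 1 for Psmb11, and in 551T 2 for Tox3 and 1 for Gm9522, where the values of 1 and 2 are near 0.

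Genes chosen because a lymphoma exceeded the other 7 libraries are a description only. In 152T they were Gm15337 (898), Lama3 (733) and Zfp462 (284). In 313T they were Rps13-ps1 (1418), Vrtn (405) and Bai1 (172), and Rps13-ps1 held 1140 to 2464 in the Atm-/- lymphomas. In 415T they were RP24-457N12.1 (801), Scara3 (702) and Ckm (140), the muscle creatine kinase gene. In 548T they were Igfbp3 (1343), the cytokine gene Il10 (285) and Sprn (356), and in 551T Mtmr7 (549), Msc (118) and Slc7a2 (1208). Genes at least 4-fold above all 7 other libraries numbered 22, 26, 27, 50 and 9 in 152T, 313T, 415T, 548T and 551T.

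The direct contrast with Atm-/- lymphomas, which were of another strain and partly of another sex, picked out further genes by limma. Higher in Rag2c/c p53-/- lymphomas were Cdkn2a (3.06), Cdkn2b (2.02), Ccnd1 (3.93), Slc16a3 (1.14), Cox6a2 (3.95), Cxcr3 (3.0), Xrcc3 (1.09), Ndufs5 (2.53), Rsad2 (1.34) and the Y-linked Eif2s3y (6.40), as log2 differences. Lower were Trp53 (-1.38), Ccnd2 (-2.41), Gimap4 (-4.80), Gimap6 (-2.69), Gimap8 (-1.66), Tet1 (-1.94), Col1a2 (-3.63), Xaf1 (-1.33), Xist (-7.68) and the p53 targets Ccng1 (-1.02), Phlda3 (-2.18), Zmat3 (-1.19), Plk2 (-1.38) and Psrc1 (-1.27). The Slc16a3 call was lost without 313T, 415T, 548T or 737T, that of Xrcc3 without 298T, 410T, 411T, 737T, 415T or 548T, and those of Xist and Eif2s3y without 298T, 410T, 411T or any 1 Rag2c/c p53-/- lymphoma. Of the Atm-/- lymphomas, 3 had Xist reads and 2 had Eif2s3y reads, so sex is mixed within that group. Ndufs5 held 1133 to 2408 in Rag2c/c p53-/- lymphomas, 612 to 715 in thymus and 231 to 326 in Atm-/- lymphomas.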

How the results depend on the processing

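The number of genes called against thymus was 5884 with no fold threshold and 1908 with a threshold of 2 log2 units, against 3750, and against Atm-/- lymphomas it was 708 with the threshold of 2, against 1244. With each library left out the counts were 2505 to 3933 and 934 to 1315. The lowest against thymus were 2505 without WT3 and 2563 without WT1. Fitting only the compared lymphomas gave 831 for the second comparison. Pseudocounts, filters, scalings and limma settings gave 2860 to 3830 against thymus, and fitting only the 2 groups compared gave 3876. Leaving out 313T and WT2, a choice made after seeing the data, gave 2571, of which 2410 were among the 3750.

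Of 133 named genes examined against thymus, 130 were called, and 23 of these were lost under at least 1 alternative that kept the fold threshold. The other 107 were called in every such fit that they entered. Most genes entered 17 of these fits. Erg, Tox3, Gm4759, Zcchc12, Klhl4 and Xlr3b entered 13, and Gm9522, Psmb11 and Foxn1 entered 12, so they were not examined in the others. Against Atm-/- lymphomas 24 of 26 were called, and 12 of these were lost under at least 1 (Ccnd1, Ccnd2, Slc16a3, Gimap8, Tet1, Xrcc3, Xist, Eif2s3y, Ccng1, Zmat3, Plk2 and Rsad2). The difference of none of these genes changed sign. The counts of lists that moved by over 1.5 times when a library was left out stand beside the lists, and the cause was not tested. Values near 0 are limited by depth, since 1 read was worth 3.38 in 313T. No paired analysis was possible because the labels give no numbers that tie a lymphoma to a thymus.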

Other observations

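Some lists were described only here. Of 59 replication-dependent histone genes, 7 rose, a share near the 9.77% of all genes tested, and 2 fell. Their median was 0.77, and 1 to 3 rose when 152T, 313T, 551T or any 1 thymus was left out. Without 313T and WT2, the 2 shallowest libraries, none rose and 3 fell, where 1136 of all 15288 genes tested in that fit rose and 1435 fell. Histone messages mostly lack a poly(A) tail, and the libraries were made from polyadenylated RNA. Of 10 imprinted growth genes 7 passed the filter on low values, and Cdkn1c alone was called. In 548T several others were high, with Dlk1 at 1639 (0 to 53 in the other 4 lymphomas and 0 to 1 in thymus), Igf2 at 372 (3 to 67 and 6 to 17) and Meg3 at 168 (2 to 19 and 1 to 3). H19, at 2593 in 548T, was at 3 to 47 in the other lymphomas and 566 to 693 in thymus.

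Of 4 tested endothelial markers, 1 rose (Plvap, 140 to 443 against 9 to 14) and 2 fell (Cdh5 and Kdr), and of 4 erythroid markers Klf1 rose (6 to 30 against 3 to 5). The Plvap call was lost without WT1, that of Cdh5 without WT1 or WT3, that of Kdr without 313T, 415T, 551T, WT1 or WT3, and that of Klf1 without WT1 or WT2, and without 313T and WT2 none of the 4 was called. Rpl29, a ribosomal protein gene, fell from 4319 to 7829 in thymus to 783 to 1290 in the lymphomas, and held 954 to 1504 in Atm-/- lymphomas. The immediate early gene Fosb was at 2144 in 415T, at 26 to 319 in the other 4 lymphomas and at 110 to 197 in thymus.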
